A study of Sus scrofa with 12 samples.

Results

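Merged peaks that cover an annotated start codon were examined in IPEC-J2, an epithelial cell line from pig small intestine, in which N6-methyladenosine (m6A) was mapped by sequencing RNA fragments bound by an m6A antibody beside fragments that were not selected. A peak was taken as a start codon peak if it lay under 1 gene, that gene was not a long noncoding RNA gene, the peak's positions included the start codon and not the stop codon, and its span in the genome, introns included, was at most 10000 bp. This gave 3983 of the 25055 distinct peaks (15.9%), on 3753 genes. The widest peak inside the limit on span was 9980 bp wide and the narrowest start codon peak outside it 10031 bp. The choice among peaks used positions and gene annotation and no read counts. The peaks themselves had been called by the authors in this series, so which regions are peaks is not independent of its reads.

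Cells were given 25 µM OAA (OAA) or 0 µM OAA (CON) for 24 h, in a series whose title names 2-oxindole-3-aceic acid (spelled as in that title) and the proteins PSMD3 and YTHDF2. All cells were wild type, in serum-containing DMEM/F12 medium. Each treatment had 3 numbered cultures, and the fragmented RNA of each gave a library titled input and a library titled IP, 12 libraries in 4 groups of 3. The labels do not say whether the cultures were grown apart, and the p-values below therefore cover the variation among these samples alone, some of which may be technical. A single line is a limited model of the intestine: all 6 epithelial markers that the gene table lists averaged 1 FPKM or more, led by keratin 8 (KRT8) at 396 FPKM, against 1 of 8 enterocyte markers, sucrase-isomaltase (SI) at 12.8 FPKM. Among markers of other cells, the leukocyte gene PTPRC, the stem cell genes LGR5 and OLFM4, the fibroblast gene DCN and the goblet genes MUC2 and TFF3 were listed at 0. The other leukocyte, stem cell and fibroblast markers in the table averaged above 0 and under 1 FPKM. Among them were CD14 (0.68) and CD3E (0.47) of leukocytes and COL1A2 (0.20) and COL1A1 (0.18) of fibroblasts. The goblet marker FCGBP averaged 2.98 FPKM, and all 3 endothelial markers in the table reached 1 FPKM, CDH5 being highest at 3.78. Markers of endothelium summed to 6.19 to 6.90 FPKM in OAA and 5.52 to 6.73 FPKM in CON, and their part in the results was not tested. In RNA from bulk cultures, fewer cells of a type and less RNA per cell cannot be told apart.

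The m6A mark is written by a nuclear methyltransferase complex, removed by demethylases and bound by YTH-domain reader proteins, and it is best known near stop codons and in long internal exons. Around the start codon the same antibodies also bind m6Am, the methylated adenosine next to the mRNA cap, which is made by a different enzyme, so a start codon peak near the 5′ end can hold either mark. This end of the mRNA is where the cap-binding and initiation factors load the small ribosomal subunit and scan to the start codon. Gene roles given below are those known for the human or mouse genes of the same name.

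The sample titles and the library codes of the tables give opposite answers on which libraries had been selected with the antibody. Libraries are therefore named by their titles, as labelled input and labelled IP. The peak ratio below is the log2 value of a peak in labelled input relative to labelled IP, and the deposited ratios run the same way. Read as antibody enrichment, the ratio keeps its sign if the codes are right and changes sign if the titles are right. Of the 3983 start codon peaks, 98.1% in OAA and 99.4% in CON had more reads in the labelled input libraries. These counts were not scaled for depth. Labelled input libraries held 19027974 to 21452502 reads in all peaks in OAA and 16491095 to 23010413 in CON. Labelled IP libraries held 4363009 to 4607452 in OAA and 3709352 to 4464058 in CON. Such depths alone put most peaks on this side, so these shares cannot be read as particular to start codon peaks. In the authors' deposited table, the median log2 ratio of start codon peaks was 3.86 in OAA and 3.77 in CON. Over all peaks it was higher, 4.04 in OAA and 3.97 in CON. The start codon peaks held 1757402 to 1924672 reads per labelled input library in OAA and 1435583 to 2037295 in CON, and 523437 to 615732 reads per labelled IP library in OAA and 476730 to 563507 in CON. They took 9.02 ± 0.195% of the reads in peaks in labelled input libraries of OAA and 8.95 ± 0.303% in those of CON, against 12.8 ± 0.728% in labelled IP libraries of OAA and 12.6 ± 0.312% in those of CON (SD, n = 3 each).

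Most start codon peaks reached to both sides of the codon. Of all of them, 2157 (54.2%) touched 5′ UTR, start codon and coding sequence, 1194 (30.0%) start codon and coding sequence, 624 (15.7%) 5′ UTR and start codon, and 8 the start codon alone. Their upstream edge lay a median of 94 bp from the annotated start of the gene, and in 1433 (36.0%) it lay within 50 bp of it. The median span was 340 bp (quartiles 175 and 1504.5 bp, range 50 to 9980 bp), and 30.5% spanned over 1000 bp, against 9.56% of 5186 stop codon peaks, 15.3% of 1394 peaks wholly in 5′ UTR, 19.4% of 5185 wholly in coding sequence and 2.11% of 3797 wholly in 3′ UTR, each chosen under the same limits. A span counts the introns between the exons that a peak joins.

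Most genes held 1 start codon peak. There were 3530 genes with 1, 216 with 2 and 7 with 3 such peaks, and for 1118 of the 3753 genes it was the only peak of their own. A stop codon peak was also present in 1779 of the genes (47.4%) and a peak wholly in 5′ UTR in 334. The 3753 genes made up 40.2% of the 9325 genes that had a peak of their own. The deposited table gives a transcription factor family for 286 (7.62%) of the genes with a start codon peak, against 11.5% of those with a stop codon peak, 8.00% with a 5′ UTR peak, 13.4% with a coding sequence peak and 9.24% with a 3′ UTR peak.

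How strongly start codon peaks stood out was read from the peak ratio, fitted with edgeR over 24145 peaks. Scaling set the typical peak to about 0, so a ratio below 0 means less labelled input signal, relative to labelled IP, than the typical peak had. A peak was called at an adjusted p under 0.05. In OAA, 941 of 3832 tested start codon peaks (24.6%) were called higher and 1329 (34.7%) lower, against 34.1% higher and 34.4% lower (68.5% in either direction) over all peaks tested. In CON, 936 (24.4%) were called higher and 1308 (34.1%) lower, against 33.9% higher and 34.2% lower (68.1% in either direction) over all peaks tested. Their median log2 ratio was -0.16 in OAA and -0.16 in CON, beside 0.03 over all peaks in either treatment.

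The calls depended on how libraries were scaled and on the low-count filter. With library size alone as the scale, start codon peaks called higher made up 31.1% of the calls in OAA and 30.0% in CON, where TMM scaling gave 41.5% and 41.7%, and the median of all peaks lay at -0.24 in OAA and -0.28 in CON. Relative to the median of all peaks, that of start codon peaks lay at -0.19 in CON under both scales. Of the 3983 start codon peaks, 151 failed the filter. Of the 3832 tested, 870 failed it when it was run on the labelled IP libraries alone. Those 870 have few labelled IP reads, which selects for higher ratios (median 1.03 in CON, 316 called higher and 9 lower). The 2962 that also passed in the labelled IP libraries had a median of -0.48 in both treatments. Over the 20098 such peaks of all kinds it was -0.24. Keeping peaks for their labelled IP reads selects in turn for lower ratios. In OAA, 618 of those 2962 (20.9%) were called higher and 1322 (44.6%) lower, against 31.8% and 41.2% over such peaks of all kinds. In CON, 620 (20.9%) were called higher and 1299 (43.9%) lower, against 31.8% and 40.9%.

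By position class, the median ratio of start codon peaks lay below those of stop codon and 5′ UTR peaks. Medians in CON were -0.16 for start codon peaks, 0.32 for stop codon peaks, 0.48 for 5′ UTR peaks, -0.06 for coding sequence peaks and -0.26 for 3′ UTR peaks. Among peaks that also passed the filter in labelled IP libraries they were -0.48, 0.19, -0.21, -0.28 and -0.49 for the same classes. Start codon peaks then lay beside 3′ UTR peaks. That filter selects on labelled IP reads, the lower term of the ratio. It kept 696 of 1251 tested 5′ UTR peaks and 4688 of 5120 tested stop codon peaks. The shift of 5′ UTR peaks to below 0 therefore cannot be told apart from this selection. Per culture, the median of start codon peaks was -0.23, -0.26 and -0.01 in OAA and -0.07, -0.22 and -0.21 in CON. The 6 culture medians of start codon peaks spread more than those of coding sequence peaks. The SD was 0.14 against 0.01 in OAA and 0.08 against 0.01 in CON (n = 3 each). For 5′ UTR peaks the SD was 0.05 in OAA and 0.09 in CON, so the spread in CON was not particular to start codon peaks. The culture medians of start codon peaks overlapped between the treatments and did not overlap with those of stop codon peaks. Stop codon medians lay at 0.28 to 0.34 in OAA and 0.30 to 0.35 in CON. The third OAA culture, with the median nearest 0, had the smallest share of labelled IP reads in start codon peaks, 12.0% against 13.4% and 13.1% in the other OAA cultures. The part of that library in the median was not tested. These class medians are descriptions of one set of libraries and were not set against each other by a test.

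**Figure D1:**
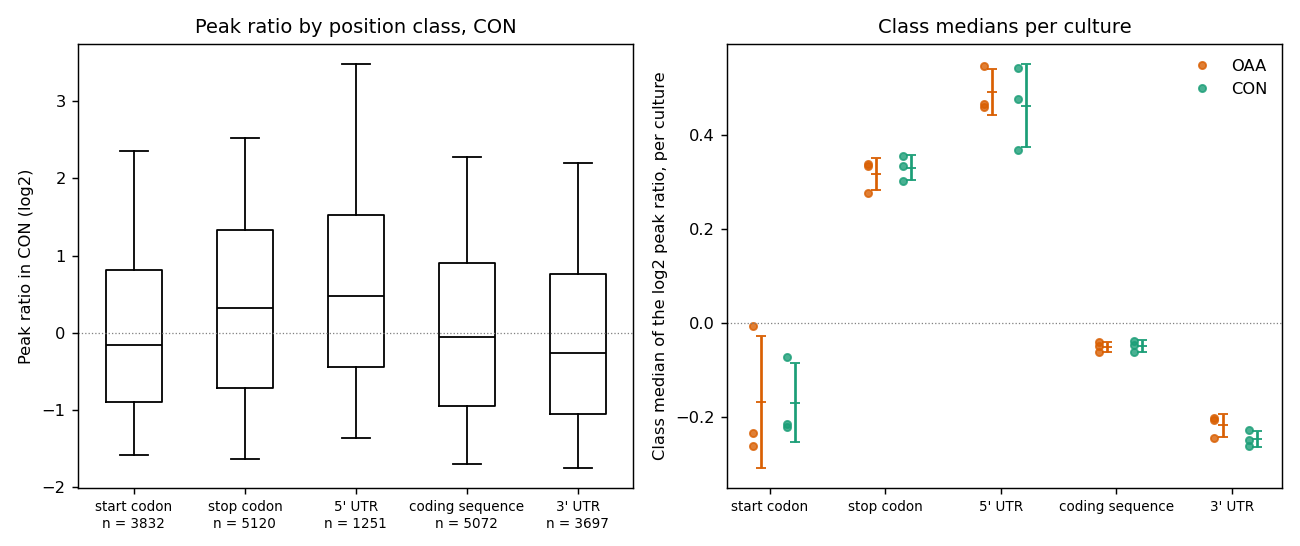
Peak ratio by position class. Left, log2 ratio of labelled input over labelled IP in CON for the tested peaks of each class (line, median; box, quartiles; whiskers, the central 90%). Right, the class median in each of the 3 OAA and 3 CON cultures (points) with mean and SD. Start codon peaks lay between -0.26 and -0.01 per culture, and stop codon peaks between 0.28 and 0.35.

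Ratios of start codon peaks varied with span. In CON, those of at most 150 bp had a median ratio of -0.38, those up to 300 bp -0.08, those up to 500 bp 0.41 and those up to 1000 bp 0.36, but those above 1000 and up to 3000 bp lay at -0.46 and those above 3000 bp at -0.33. Stop codon peaks in the same bins had medians of -1.15, -0.37, 0.72, 1.25, 1.17 and 0.51. Above 1000 bp, then, stop codon peaks kept a median above 0 and start codon peaks did not. With start codon peaks limited to 1000 bp, the distance of their CON median from that of all peaks was -0.08, where it was -0.19 for all of them. Wide start codon peaks can join the first exon to later ones across an intron, and intron length was not measured here.

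**Figure D2:**
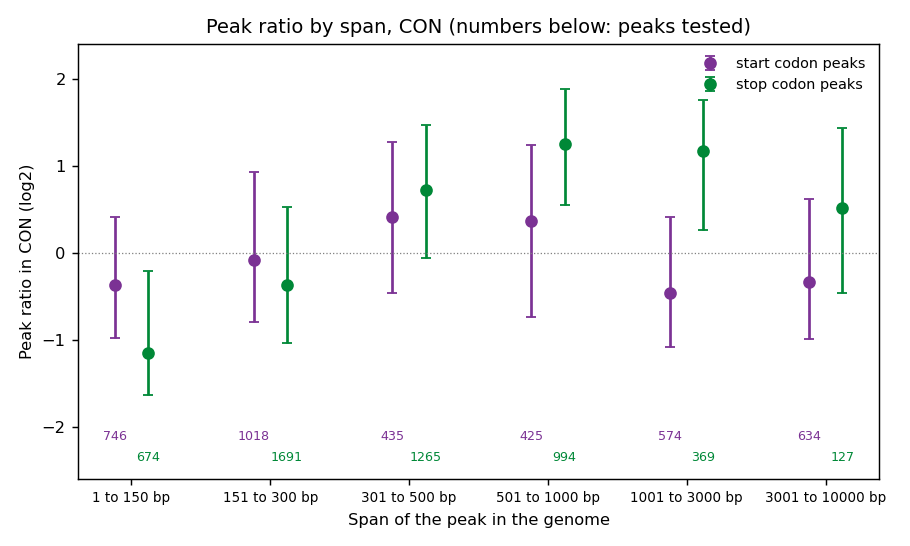
Peak ratio in CON by span for start codon peaks and stop codon peaks. Points are medians of the log2 ratio, bars are quartiles, and the numbers near the axis count the peaks tested. Stop codon medians rise up to 1000 bp, start codon medians are highest at 0.41 and 0.36 in the bins up to 500 and up to 1000 bp, and beyond 1000 bp the start codon medians lie at -0.46 and -0.33 while the stop codon medians lie at 1.17 and 0.51.

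Distance from the gene start and annotation gave smaller differences. Start codon peaks whose upstream edge lay within 50 bp of the gene start had a median CON ratio of -0.26 (1383 tested, 21.5% called higher), and those over 2000 bp away had 0.08 (704 tested, 34.9% called higher). Peaks of 5′ UTR and start codon without coding sequence had a median of 0.11, against -0.24 for those that also held coding sequence and -0.19 for those of start codon and coding sequence. Among peaks that also passed the filter in labelled IP libraries, these 3 medians were -0.52, -0.48 and -0.45. That filter selects on labelled IP reads, the lower term of the ratio. It kept 336 of 567 tested peaks without coding sequence, and 1729 of 2112 and 894 of 1146 of the others in the same order. The order of the 3 annotations therefore cannot be told from these medians.

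Ratios tended to be lower where the gene's level was higher. Over the 3832 tested start codon peaks, the CON ratio and the FPKM of the gene had a Spearman rho of -0.47. This is a correlation across peaks of one set of libraries, the FPKM columns carry the codes of the labelled IP libraries that are also the lower term of the ratio, and peaks are not independent. Genes with a tested start codon peak had a median of 17.1 FPKM, against 10.5 FPKM over genes with any tested peak.

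The start codon peaks with the most labelled input reads showed both signs. PCBP1, which encodes a poly(C)-binding protein that regulates mRNA stability and translation, had its peak at chr3:72379848-72380362 on the minus strand, in 5′ UTR, start codon and coding sequence. The peak had 1447, 1480 and 1350 CPM (reads per 1000000 scaled reads in peaks) in OAA and 1285, 1276 and 1321 CPM in CON in labelled input libraries. In labelled IP libraries it had 157, 163 and 151 CPM in OAA and 149, 162 and 161 CPM in CON. The labels did not overlap in either treatment, and the ratio was 3.18 ± 0.07 in OAA and 3.04 ± 0.07 in CON (log2, SE, edgeR adjusted p = 1.49e-26 and 3.73e-26).

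KLF5, a transcription factor of proliferating gut epithelium, had a coding-side peak at chr11:45370147-45373514. It had 1170, 1177 and 1284 CPM in OAA and 1221, 1239 and 1186 CPM in CON in labelled input libraries, against 305, 295 and 331 CPM in OAA and 335, 327 and 310 CPM in CON in labelled IP libraries. The ratio was 1.97 ± 0.06 in OAA and 1.91 ± 0.06 in CON. HNRNPF, a splicing regulator, lay at 0.71 ± 0.06 in OAA and 0.74 ± 0.06 in CON, and a gene that the deposited table calls env lay at 1.64 ± 0.06 and 1.68 ± 0.06 in the same order. FTL, the ferritin light chain, whose translation is set by an iron-responsive element in its 5′ UTR, had the most labelled input reads of all and went the other way. It had 2015, 2093 and 2329 CPM in OAA and 2155, 2048 and 2110 CPM in CON in labelled input libraries, below its 3508, 3616 and 2878 CPM in OAA and 2733, 3152 and 2948 CPM in CON in labelled IP libraries. Its ratio was -0.64 ± 0.07 in OAA and -0.48 ± 0.07 in CON (log2, SE, adjusted p = 7.02e-10 and 1.58e-07).

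At the top of the CON ratios among peaks with at least 5 CPM and a gene symbol stood peaks with very few labelled IP reads. PPP2CB, a catalytic subunit of protein phosphatase 2A, had 34.3, 25.2 and 30.4 CPM in OAA and 25.5, 24.3 and 30.7 CPM in CON in labelled input libraries, and 0.990, 0.610 and 1.25 CPM in OAA and 0.224, 1.40 and 0.967 CPM in CON in labelled IP libraries. Its ratio was 4.97 ± 0.29 in OAA and 4.91 ± 0.31 in CON. Others rested on as few as 3 labelled IP reads over the 3 CON libraries, so their folds are given with an exact 95% interval that covers counting error alone. LDHA, lactate dehydrogenase A, had a CON fold of 28.2 (9.57 to 137) and FKBP3, a nuclear prolyl isomerase, of 27.4 (9.29 to 133). MTCH2, an outer mitochondrial membrane protein, had a fold of 25.8 (8.73 to 126). In OAA, FKBP3 had 371 labelled input reads and 0 labelled IP reads, which makes it at least 33.2-fold higher in labelled input, against a floor of 3 reads over the group.

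At the bottom stood peaks that were narrow or reached far into the gene. CNN2, the actin-binding protein calponin 2, had a 150 bp peak at chr2:77380849-77380998 with 11.6, 9.41 and 12.6 CPM in OAA and 13.0, 8.22 and 9.27 CPM in CON in labelled input libraries. In labelled IP libraries it had 82.5, 84.8 and 69.8 CPM in OAA and 74.8, 74.0 and 80.3 CPM in CON, and the ratio was -2.82 ± 0.14 in OAA and -2.90 ± 0.15 in CON. MLF2 lay at -2.80 ± 0.16 in OAA and -2.47 ± 0.16 in CON, and PPA1, the cytosolic pyrophosphatase, at -2.46 ± 0.18 and -2.45 ± 0.18. LRPAP1, a chaperone of the LDL receptor family, lay at -2.56 ± 0.15 in OAA and -2.38 ± 0.15 in CON, and OTUB1, a deubiquitinase, at -2.69 ± 0.19 and -2.32 ± 0.19. All 5 were called in both treatments by edgeR.

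Most start codon peaks of ribosomal protein genes were called lower. Of the 66 cytosolic ribosomal protein genes listed, 54 held a start codon peak, which is 83.1% of the 65 with a peak of their own. Of their 57 tested peaks, 51 were called lower in CON, 1 higher and 5 neither, where 34.1% of all start codon peaks were called lower and 24.4% higher, and the median was -1.67 in OAA and -1.44 in CON. RPS20, of the small subunit, had 371, 384 and 415 CPM in OAA and 631, 380 and 360 CPM in CON in labelled input libraries, against 1643, 1510 and 1269 CPM in OAA and 1331, 1399 and 1427 CPM in CON in labelled IP libraries. One CON library stood apart at 631 CPM, and the ratio was -1.92 ± 0.12 in OAA and -1.60 ± 0.12 in CON. RPL23A, of the large subunit, lay at -1.48 ± 0.10 in OAA and -1.39 ± 0.10 in CON. Other peaks of the ribosomal protein genes, 32 of them, had a median of -0.03 in CON.

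Most start codon peaks of oxidative phosphorylation and proteasome genes were also called lower, and the other peaks of these genes had medians below -1 as well. Oxidative phosphorylation genes had 43 tested start codon peaks, 35 called lower and 1 higher in CON (34.1% and 24.4% of all start codon peaks), with a median of -1.47 in OAA and -1.27 in CON, beside -1.26 for their 32 other peaks in CON. NDUFB8, of complex I, lay at -1.14 ± 0.10 in OAA and -1.08 ± 0.11 in CON, and ATP5MC3, a subunit c gene of ATP synthase, at -0.77 ± 0.08 and -0.63 ± 0.08. NDUFV3, also of complex I, was the exception called higher, at 0.35 ± 0.12 in OAA and 0.37 ± 0.12 in CON. It was no longer called with library size alone as the scale (log2 0.06, adjusted p = 0.653 by edgeR).

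Proteasome genes had 19 tested start codon peaks, 17 called lower and 1 higher in CON (34.1% and 24.4% of all start codon peaks), with a median of -1.25 in OAA and -1.14 in CON, and their 17 other peaks had a median of -1.02 in CON. PSMD3, a subunit of the regulatory particle named in the series title, had its peak at chr12:22360153-22360502, on both sides of the start codon. It had 64.8, 73.5 and 67.9 CPM in OAA and 65.8, 65.4 and 66.8 CPM in CON in labelled input libraries, and 169, 172 and 148 CPM in OAA and 158, 160 and 147 CPM in CON in labelled IP libraries. The labels did not overlap and the treatments did, with a ratio of -1.25 ± 0.09 in OAA and -1.23 ± 0.09 in CON. PSMD8, of the same particle, lay at -1.52 ± 0.11 in OAA and -1.29 ± 0.11 in CON, and PSMB6, a catalytic subunit, at -1.42 ± 0.12 and -1.37 ± 0.12.

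Translation initiation factors had 21 tested start codon peaks, 16 called lower and 1 higher in CON (34.1% and 24.4% of all start codon peaks). Their median was -1.03 in OAA and -1.04 in CON, beside -0.92 for their 49 other peaks in CON. EIF1, which guards start codon choice, lay at -0.62 ± 0.08 in OAA and -0.64 ± 0.08 in CON, EIF1AX, its partner in scanning, at -1.16 ± 0.11 and -1.12 ± 0.11, and the poly(A)-binding protein PABPC1 at -0.94 ± 0.07 and -0.96 ± 0.07. Zinc finger transcription factor genes leaned the other way. Only 79 of 245 such genes with a peak held a start codon peak (32.2%), and of 81 tested peaks 42 were called higher and 13 lower in CON (24.4% and 34.1% of all start codon peaks), with a median of 0.79 in OAA and 0.65 in CON and of 0.56 for their 730 other peaks in CON. ZNF22 lay at 2.58 ± 0.10 in OAA and 2.43 ± 0.09 in CON, ZBTB7A at 1.81 ± 0.08 and 1.80 ± 0.08, and ZNF687 at 1.46 ± 0.12 and 1.39 ± 0.12.

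The remaining lists held calls in both directions. Short-lived regulator mRNAs had 8 of 30 tested start codon peaks called higher and 10 lower in CON, shares near the 24.4% and 34.1% of all start codon peaks, with a median of -0.07 in OAA and -0.09 in CON, while their 71 other peaks had a CON median of 0.91. Beside KLF5, ZFP36L2, an RNA-binding decay factor, lay at -1.19 ± 0.09 in OAA and -1.14 ± 0.09 in CON, and KLF6, a transcription factor, was not called at 0.07 ± 0.09 and 0.09 ± 0.09. Stress response mRNAs had 1 of 8 called higher and 3 lower in CON (24.4% and 34.1% of all start codon peaks). Their median was -0.13 in OAA and -0.20 in CON, beside -0.06 for their 26 other peaks in CON. CEBPB, whose mRNA gives several proteins from alternative start codons, lay at 0.61 ± 0.08 in OAA and 0.50 ± 0.08 in CON, and XBP1, a factor of the unfolded protein response, at -0.67 ± 0.11 and -0.83 ± 0.11. Lipid genes had 3 of 16 called higher and 8 lower in CON (24.4% and 34.1% of all start codon peaks). Their median was -0.50 in OAA and -0.53 in CON, beside -0.71 for their 56 other peaks in CON. Among the lipid genes, the desaturases SCD and FADS2 lay at -0.81 ± 0.11 and -0.46 ± 0.13 in OAA and at -0.65 ± 0.11 and -0.55 ± 0.14 in CON.

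The m6A and m6Am machinery had 11 tested start codon peaks, 5 called higher and 3 lower in CON (24.4% and 34.1% of all start codon peaks). Their median was 0.24 in OAA and -0.02 in CON, beside 0.05 for the 48 other peaks of these genes in CON. So few peaks cannot show a lean of the list. YTHDF3, a cytoplasmic m6A reader, had the start codon peak with the most labelled input reads in this list. It had 1106, 1109 and 1136 CPM in OAA and 1094, 1201 and 1144 CPM in CON. Its labelled IP libraries had 469, 500 and 552 CPM in OAA and 527, 518 and 534 CPM in CON, and the ratio was 1.14 ± 0.06 in OAA and 1.12 ± 0.06 in CON. ALKBH5, an m6A demethylase, lay at 1.99 ± 0.10 in OAA and 1.96 ± 0.10 in CON, and ABCF1, linked to m6A-dependent initiation, at -0.65 ± 0.14 and -0.41 ± 0.14. ABCF1 lost its CON call without the first labelled input library of CON (-0.25) and without the second labelled IP library (-0.31).

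YTHDF2, the reader named in the series title that speeds decay of its targets, had a weak start codon peak at chr6:85716967-85718090. It had 9.16, 6.67 and 11.5 CPM in OAA and 9.41, 7.41 and 7.14 CPM in CON in labelled input libraries, and 7.32, 6.30 and 9.59 CPM in OAA and 11.2, 12.2 and 12.1 CPM in CON in labelled IP libraries. The labelled IP values of the treatments did not overlap, and those of labelled input did. The ratio was 0.24 ± 0.24 in OAA (adjusted p = 0.389, edgeR) and -0.56 ± 0.23 in CON (adjusted p = 0.0315), and the change between the treatments was 0.80 ± 0.33, with an unadjusted p of 0.0221 and an adjusted p of 0.999. The CON call was lost under DESeq2 (log2 -0.48, adjusted p = 0.0705) and with its size factors in edgeR (-0.48, adjusted p = 0.0650), and without any one of 5 libraries, with values of -0.56 to -0.42.

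**Figure D3:**
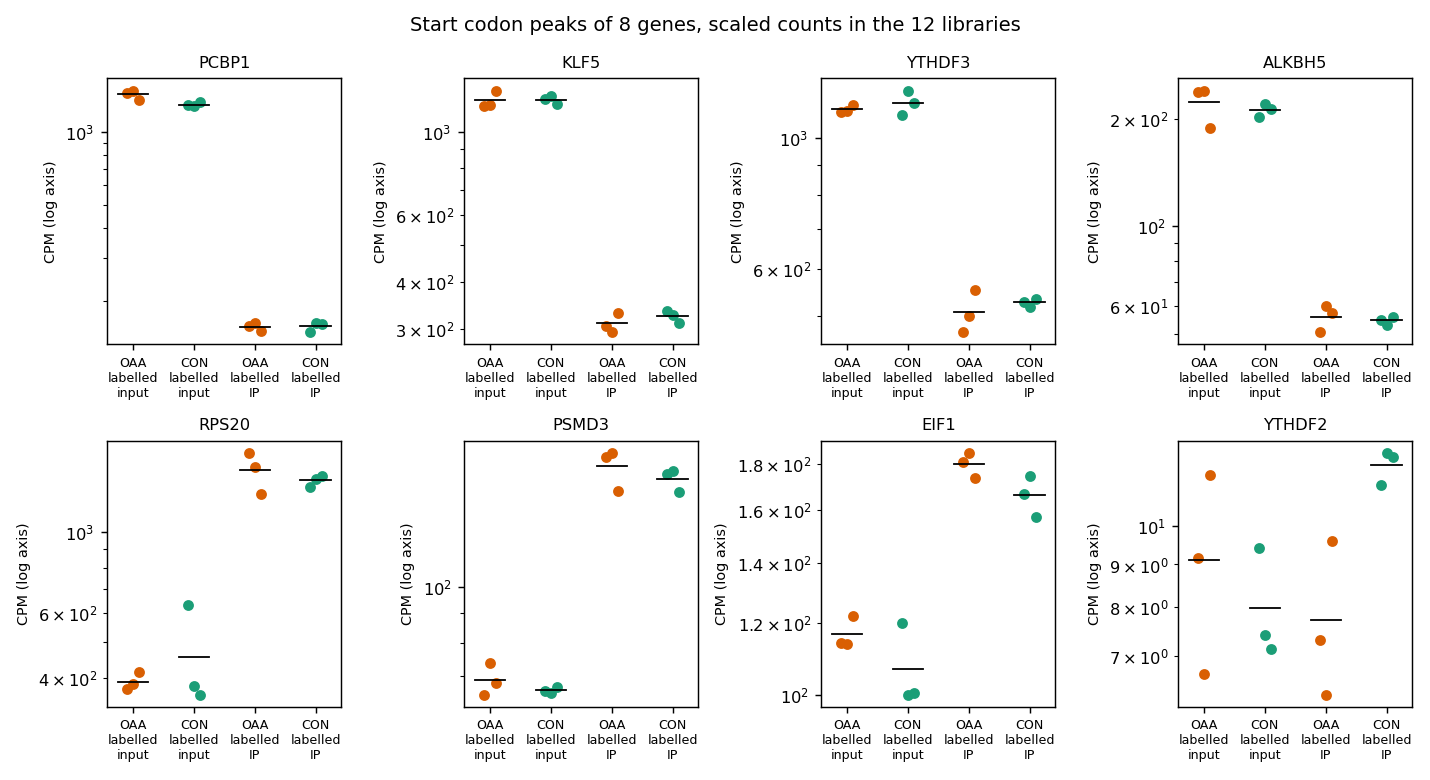
Scaled counts of the start codon peaks of 8 genes in the 12 libraries. Each panel gives CPM on a log axis for the OAA and CON libraries of each label (points, libraries; line, mean). Labelled input lies above labelled IP in PCBP1, KLF5, YTHDF3 and ALKBH5 and below it in RPS20, PSMD3 and EIF1, with OAA and CON overlapping in each of these labels except for labelled input of PCBP1. In YTHDF2 the labelled IP values were 6.30 to 9.59 CPM in OAA and 11.2 to 12.2 CPM in CON.

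Most calls were shared by both treatments. Of the start codon peaks called higher, 782 were called in both, 83.1% of those of OAA and 83.5% of those of CON. Of those called lower, 1142 were called in both, 85.9% of those of OAA and 87.3% of those of CON. None was called in opposite directions (0 of 3832). Shared calls were not counted over all peaks tested, so this sharing cannot be read as particular to start codon peaks.

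Whether OAA altered start codon peaks was asked in 3 ways, and no start codon peak was called in any. The change of the ratio between treatments was called in 0 of 3832 peaks by edgeR (0% over all peaks tested), with 194 (5.06%) at an unadjusted p under 0.05, beside 4.46% over all peaks, and DESeq2 called 0, with 204 at that level. In labelled input libraries 0 of 3959 were called by edgeR (0% over all peaks tested), with 237 (5.99%) at an unadjusted p under 0.05, beside 5.20% over all peaks, and DESeq2 called 0, with 219. In labelled IP libraries 0 of 2962 were called by edgeR (0.00498% over all peaks tested), with 147 (4.96%) at an unadjusted p under 0.05, beside 3.88% over all peaks, and DESeq2 called 0, with 70. In the authors' deposited table, 129 start codon peaks (3.24%) had a p under 0.05, beside 2.69% over all peaks, and the smallest adjusted p was 0.9998. Medians of the OAA over CON difference were 0.01 in labelled input and 0.02 in labelled IP libraries (log2). Half-widths for a single peak's difference were set from its edgeR SE with the few degrees of freedom of the 6 libraries alone. Their medians were 0.73 in labelled input and 0.64 in labelled IP libraries. These are wider than the 95% intervals of the edgeR tests, which use more degrees of freedom. The change of the ratio had a larger median half-width than either.

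The 5 start codon peaks with the smallest p for the change of the ratio did not pass (adjusted p = 0.999, edgeR). They were those of SNRPF, a core protein of spliceosomal snRNPs (-0.99 ± 0.31), UBR3, a ubiquitin ligase (1.03 ± 0.32), CWC27, a spliceosomal protein (-1.11 ± 0.35), UBE2E2, a ubiquitin-conjugating enzyme (1.03 ± 0.34), and TRERF1, a zinc finger transcriptional regulator (-1.28 ± 0.43). SNRPF had 3.52, 3.72 and 5.20 CPM in OAA and 8.10, 8.08 and 5.70 CPM in CON in labelled input libraries, groups that did not overlap, and 26.1, 18.9 and 18.5 CPM in OAA and 17.9, 22.2 and 15.7 CPM in CON in labelled IP libraries, groups that did.

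In labelled input libraries the smallest p belonged to SLC4A2, an anion exchanger (1.00 ± 0.27), WBP1 (0.85 ± 0.23), MOGS, the glucosidase that starts trimming of N-glycans (1.04 ± 0.29), FEN1, a flap endonuclease of DNA replication (0.36 ± 0.11), and SGMS2, a sphingomyelin synthase (-0.25 ± 0.08), each with an adjusted p of 0.940 by edgeR. FEN1 had 47.3, 48.5 and 42.5 CPM in OAA and 37.7, 33.8 and 36.4 CPM in CON, and SGMS2 had 100.4, 94.8 and 91.9 CPM in OAA and 115, 112 and 116 CPM in CON. The groups did not overlap in either gene, and neither difference passed.

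In labelled IP libraries, ARPC5, a subunit of the Arp2/3 complex that nucleates branched actin, had the smallest p. Its peak at chr9:124845375-124848086 had 79.6, 91.7 and 90.2 CPM in OAA and 28.4, 31.4 and 74.0 CPM in CON. The third CON library lay near the OAA values and apart from the other CON libraries. The difference was 0.97 ± 0.19 (log2, SE) with an adjusted p of 0.141 by edgeR. It passed with no filter on low counts (0.98, adjusted p = 0.000453), with the replicate number as a block (1.05, adjusted p = 0.0217), without the third CON library (1.53, adjusted p = 1.19e-07) and without the third OAA library (0.95, adjusted p = 4.44e-10). In labelled input libraries the same peak had 50.3, 38.0 and 47.9 CPM in OAA and 44.5, 38.1 and 30.3 CPM in CON, which overlapped, and the gene stood at 58.4 ± 3.82 FPKM in OAA and 57.9 ± 3.70 FPKM in CON (SD, n = 3).

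ITGA3, an integrin subunit that binds laminin, was chosen after its values were seen, since it was called when a library was left out. Its peak at chr12:26234753-26235305, in the 5′ UTR and start codon, had 121, 33.1 and 34.8 CPM in OAA and 119, 105 and 96.7 CPM in CON in labelled IP libraries. The first OAA library lay with the CON libraries and apart from the other OAA libraries. The difference was -0.77 ± 0.25 over all libraries (adjusted p = 0.998, edgeR) and -1.66 without the first OAA library, where it was called. Without the third OAA library it was called at -0.48 (adjusted p = 0.0193, edgeR). In labelled input libraries it had 27.0, 19.1 and 27.2 CPM in OAA and 26.3, 21.8 and 26.0 CPM in CON. ETV3, an ETS-family repressor (-1.12 ± 0.31), BICC1, an RNA-binding protein (-0.49 ± 0.14), DCTN1, the large subunit of dynactin (0.87 ± 0.26), and B4GALT2, a galactosyltransferase (1.37 ± 0.41), had the next smallest p among named peaks in labelled IP libraries and did not pass.

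The third OAA labelled IP library decided the count in that comparison. Without it, 19 start codon peaks were called, 18 of them higher in OAA, among 50 over all peaks. The directions of the other calls were not counted here. With all libraries, 2962 of the 20098 peaks tested in this label were start codon peaks. The 19 called included FTL (0.26), the ribosomal proteins RPL35 (0.24) and RPL23A (0.21) and the cytoskeletal genes VIM (0.34), TUBB (0.38) and ACTG1 (0.19). The glycolytic enzymes TPI1 (0.34), ENO1 (0.27) and PGAM1 (0.23) and SCD (0.46) were also among the 19. Over all libraries FTL differed by 0.17 ± 0.06 and SCD by 0.34 ± 0.11 (adjusted p = 0.998 each, edgeR).

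**Figure D4:**
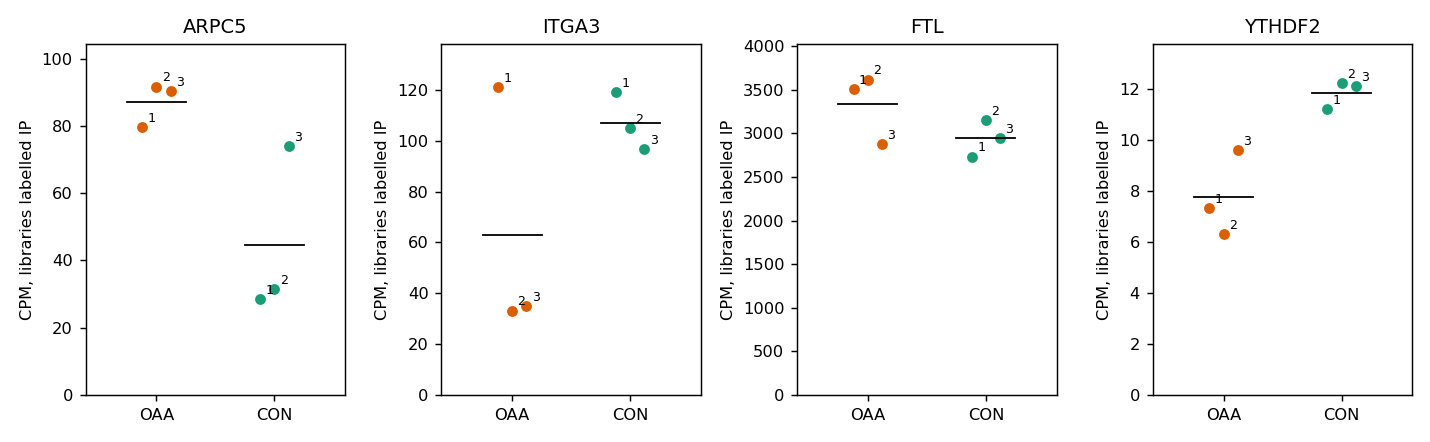
Start codon peaks of ARPC5, ITGA3, FTL and YTHDF2 in the libraries labelled IP. CPM (axis from 0) are shown for the 3 OAA and 3 CON libraries, numbered as in the labels, with the mean as a line. The third CON library of ARPC5 (74.0 CPM) lies near the OAA libraries, and the first OAA library of ITGA3 (121 CPM) lies with the CON libraries.

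Gene levels were compared in the FPKM table. Of 3753 genes with a start codon peak, 3614 reached 1 FPKM in 3 libraries, and limma called 0 of them between OAA and CON (0% over all genes tested), with 82 (2.27%) at an unadjusted p under 0.05, beside 3.31% over all genes. The smallest p belonged to the secreted protein osteopontin, SPP1, with 30.5, 27.2 and 28.8 FPKM in OAA and 40.1, 35.9 and 35.4 FPKM in CON, and to the glutathione transferase GSTA1, with 15.5, 14.6 and 13.4 FPKM in OAA and 17.7, 21.2 and 21.4 FPKM in CON. Neither group pair overlapped, and neither passed (log2(FPKM + 1) differences of -0.35 ± 0.07 and -0.44 ± 0.09, adjusted p = 1.00 by limma). MRPS25 (0.25), TARBP2 (0.31), a partner of Dicer, and PDAP1 (0.60) followed. The differences on this scale understate changes of genes with low FPKM.

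Start and stop codon peaks of the same gene were compared within each culture, so that gene level and library size cancel. In 1710 genes with both ends tested, limma called the start codon ratio above the stop codon ratio in 426 (24.9%) and below it in 533 (31.2%) in OAA, 56.1% together. In CON it was called above in 414 (24.2%) and below in 525 (30.7%), 54.9% together. The median difference was -0.05 in OAA and -0.07 in CON, with quartiles of -1.09 and 0.92 in OAA and of -1.07 and 0.94 in CON. Calls were shared for 344 genes above and 449 below, and 1 gene was called in opposite directions. Across these genes, the ratios at the ends had a Pearson r of 0.24 and a Spearman rho of 0.24 in CON, a description over genes that share the same libraries. Reads were fewer at the start codon, with a median of 326 labelled input reads over the 3 CON libraries against 2417 at the stop codon.

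Among named genes, which needed at least 5 CPM and no overlap between the ends, the 5 with the start codon furthest above the stop codon in CON were CDPF1, FBXW4, Hhipl1, HOMER1 and PPP1CC. HOMER1, a scaffold of signalling receptors, had its start codon peak at chr2:88251450-88254155. The ratio there was 2.76, 2.52 and 2.34 in OAA and 2.47, 2.71 and 2.61 in CON, and at the stop codon -0.96, -1.62 and -1.10 in OAA and -1.17, -1.24 and -1.22 in CON. The difference was 3.77 ± 0.21 in OAA and 3.80 ± 0.21 in CON. CDPF1 differed by 4.67 ± 0.27 in OAA and 4.54 ± 0.27 in CON, and Hhipl1 by 3.95 ± 0.18 and 4.04 ± 0.18. FBXW4, a substrate receptor of ubiquitin ligases, differed by 4.68 ± 0.27 and 4.10 ± 0.27 in the same order. PPP1CC, a catalytic subunit of protein phosphatase 1, differed by 4.01 ± 0.31 and 3.67 ± 0.31. Few labelled IP reads lay at the start codon of CDPF1, 20 over the 3 OAA libraries and 18 over the 3 CON libraries. FBXW4 had 26 and 30 such reads and PPP1CC 43 and 46, against 718 and 674 for Hhipl1 and 655 and 617 for HOMER1.

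By the same rule, the 5 with the start codon furthest below the stop codon in CON were TAF5L, P2RY2, COG3, NDUFS6 and JAG1. JAG1, a Notch ligand, had start codon ratios of -1.50, -1.80 and -1.35 in OAA and -1.49, -1.42 and -1.32 in CON, at chr17:19629443-19629617. Its stop codon ratios were 2.51, 2.59 and 2.42 in OAA and 2.43, 2.65 and 2.56 in CON. The ends of the gene did not overlap in any culture, and the difference was -4.06 ± 0.20 in OAA and -3.96 ± 0.20 in CON. TAF5L, a subunit of histone acetyltransferase complexes, differed by -3.99 ± 0.29 in OAA and -4.53 ± 0.29 in CON, P2RY2, a receptor of extracellular nucleotides, by -4.69 ± 0.21 and -4.30 ± 0.21, COG3, of the Golgi tethering complex, by -3.87 ± 0.29 and -4.01 ± 0.29, and NDUFS6, of complex I, by -3.96 ± 0.22 and -3.96 ± 0.22.

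**Figure D5:**
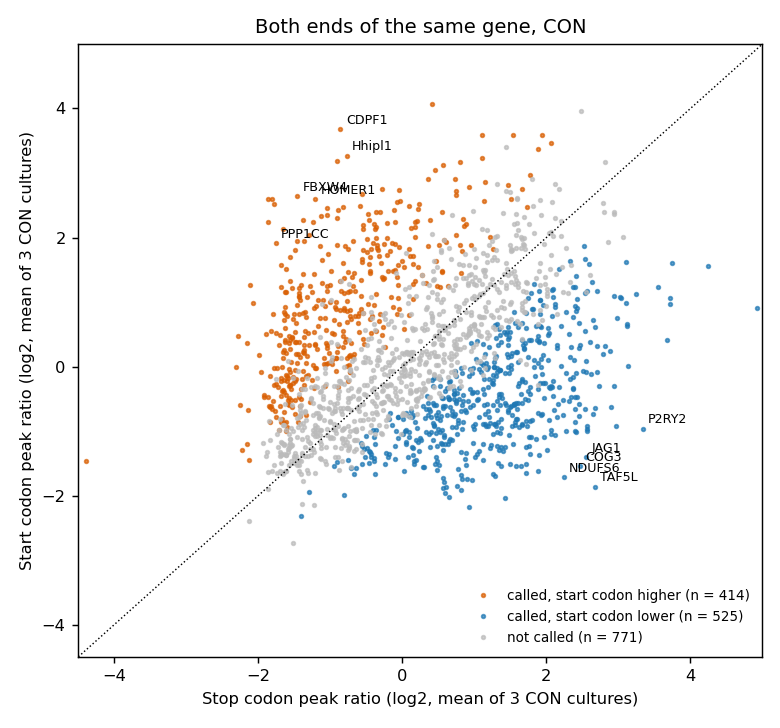
Start codon against stop codon peak ratio in CON for the 1710 genes with both ends tested. Each point is a gene, placed by the mean log2 ratio of the 3 CON cultures, and the dotted line marks equal ratios. Of the genes, 414 were called with the start codon higher and 525 with the start codon lower, and the named genes on each side carry their names.

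OAA and CON were not distinguished in this difference. Limma called 0 of 1710 genes for OAA minus CON (0% of the genes tested), with 105 (6.14%) at an unadjusted p under 0.05 and a smallest adjusted p of 0.649. ST14, the membrane protease matriptase, had the smallest p, with differences of 1.20, 1.24 and 0.44 in OAA and -0.58, -1.04 and -0.35 in CON. The groups did not overlap and the change was 1.62 ± 0.35 (adjusted p = 0.649, limma). Its start codon peak rested on 11 labelled IP reads over the 3 OAA libraries and 31 over the 3 CON libraries. MOGS (1.07 ± 0.26), UBXN4, a factor of endoplasmic reticulum protein degradation (1.58 ± 0.40), and CAVIN2, a coat protein of caveolae (1.46 ± 0.41), also had small p and did not pass.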

How the data were processed

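The start codon peaks and gene lists were chosen with earlier results of these data known. RNA was cut to fragments of about 100 nt before the split into both parts. Bowtie2 and HISAT2 are named in the submitters' processing notes. Their roles and versions, the peak caller, the annotation and the genome build were not given in the sources used here. Coordinates are those of the deposited table, with starts printed as 1-based. Per the file headers, the deposited peak table holds a read count per library in each merged peak, the authors' log2 ratio per treatment and the authors' p-value and adjusted p-value for the difference. The deposited gene table holds FPKM made by the authors, under the codes of the libraries labelled IP. Every library column was matched to a sample (0 unmatched).

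All distinct peaks entered edgeR 4.0.16 (R 4.3.3), with filterByExpr at its defaults, TMM scaling, quasi-likelihood fits and Benjamini-Hochberg adjusted p-values. The ratios and their change used all 12 libraries, and OAA against CON within a label used 6. FPKM and the differences within genes were tested with limma 3.58.1, on log2(FPKM + 1) and on log2 CPM with a prior count of 2. Scripts were tested on simulated data. CPM are scaled with TMM over the 12 libraries, and ± is SE unless SD is given. Intervals and floors cover counting error only.

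Named genes have a symbol, at least 5 CPM in the higher group and no overlap between groups: the 5 highest and 5 lowest called, or the 5 with the smallest p where fewer than 3 were called, the 5 with the most labelled input reads, up to 3 per list with the most labelled input reads, and YTHDF2 and PSMD3. The 9 lists are m6A and m6Am machinery, translation initiation factors, stress response mRNAs, short-lived regulators, cytosolic ribosomal proteins, oxidative phosphorylation, proteasome, lipid genes and zinc finger genes. Some genes that the rule names are not reported here. Lists are described by counts and medians and were not tested. Libraries of one number were split from one RNA per the labels' protocol, but their deviations from the group means correlated at -0.02 to 0.09, so the number did not visibly pair them. Alternatives were DESeq2 1.42.0, other scalings, no filter, blocks, a narrower limit on span, other pseudocounts and leaving out each library. Sequence motifs were not analysed here, since no genome of the files' build was at hand. Figures were drawn with matplotlib.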

Additional observations from a re-analysis of the deposited data

How the results depend on the processing

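Counts of called start codon peaks stayed within 1.5 times of those reported under most alternatives, and the change of the ratio and the labelled input, FPKM and within-gene comparisons of OAA with CON gave 0 calls under every alternative that kept all libraries. With start codon peaks limited to 1000 bp, which leaves fewer of them, 1485 were called in OAA (801 lower) and 1476 in CON (796 lower). Among peaks that also passed the filter in labelled IP libraries, an alternative chosen after seeing the data, 618 were called higher and 1322 lower in OAA, and 620 higher and 1299 lower in CON (over all such peaks, 31.8% higher in both, 41.2% and 40.9% lower). In labelled IP libraries, no filter and the replicate block each gave 1 call, ARPC5. The block on culture or replicate number gave 2247 calls in OAA and 2222 in CON and changed no other count by over 1.5 times.

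With each library left out in turn, calls ranged over 2018 to 2339 in OAA (818 to 1008 higher, 1190 to 1341 lower) and 1967 to 2320 in CON (820 to 993 higher, 1147 to 1327 lower). The change of the ratio had 0 to 1 calls, ARPC5 (-1.27) without the third CON and ITGA3 (1.64) without the first OAA labelled IP library. Labelled input had 0 to 0, labelled IP 0 to 19 and FPKM 0 to 0. Within genes, calls ranged over 756 to 927 in OAA (341 to 425 higher, 398 to 510 lower at the start codon), 739 to 949 in CON (325 to 419 higher, 412 to 530 lower) and 0 to 0 for OAA minus CON.

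Few named values changed sign, and the cause was not tested. With library size alone, CON ratios turned to -0.13 for UBR3, -0.16 for PPP1R15B, -0.21 for KLF6 (adjusted p = 0.0366, edgeR) and -0.11 for SQLE, and the change for PSMD3 to 0.016. With each library left out, the CON ratio lay between -0.48 and 0.32 for ARPC5 (highest without the third CON labelled IP library) and between -0.20 and 0.0050 for FEN1, the change for PSMD3 between -0.080 and 0.030, the labelled input difference of YTHDF2 between -0.011 and 0.37 and the FPKM difference of PSMD3 between -0.068 and 0.057. Few labelled IP reads limit the weak peaks most: 1021 start codon peaks could not be tested there.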

Other observations

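Some genes with several start codon peaks held peaks of unlike ratio. In 194 genes with at least 2 tested start codon peaks, the highest and lowest CON ratio of a gene differed by a median of 1.17 (log2). In 39 of these genes the peaks were called in opposite directions. Start codon peaks at large also varied, with CON quartiles of -0.90 and 0.81 and 24.4% called higher and 34.1% lower. Peaks of different genes were not paired in this way, so the gap cannot be read as particular to these genes. RPS24, a small-subunit ribosomal protein, had a peak at chr14:80473889-80474013 with 124 labelled input and 3 labelled IP reads over the CON libraries (3.28) and one at chr14:80475770-80476084 with 17155 and 11257 reads (-1.44). MLF2 had a peak at chr5:63951701-63952335 with 875 labelled input and 18 labelled IP reads in CON (3.56 ± 0.33), next to the one at chr5:63952361-63952485 with 700 and 941 reads (-2.47 ± 0.16). KLF5 had, beside its main peak (1.91), one at chr11:45369797-45369896 with 104 and 60 reads (-1.27 ± 0.40). ADCY3, an adenylyl cyclase, had peaks at 1.74 ± 0.10 and -1.10 ± 0.26, and TSC22D1 at 0.81 ± 0.11 and -1.87 ± 0.19. These genes were chosen after their values were seen, and the starts of alternative transcripts were not analysed here.

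CNN2 had the widest gap in CON, between its peak at -2.90 and one at chr2:77381099-77385597. The latter had 121 labelled input reads and 0 labelled IP reads in CON, where its fitted ratio was 7.59 ± 1.58. In OAA these peaks lay at -2.82 and 2.77, a smaller gap. The size of the CON gap rests on the 0 count and is therefore uncertain.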
